A study of Rattus norvegicus with 15 samples.

Results

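The 30 genes described here are names that macrophages are commonly recognised by, and each was taken by its symbol from a deposited table of 34357 genes, in which each symbol stood on 1 row. They were measured by RNA-seq of total RNA from male rats of the Dahl salt-sensitive strain, an inbred line that becomes hypertensive when fed salt. In the deletion rats a stretch of 30.4 kb without coding genes was removed from chromosome 2 (rn7, 60825801 to 60856216), matching a human haplotype region linked to blood pressure, and the wild-type rats of the same strain keep it. The study measured RNA to find genes that respond to this loss. There were 4 deletion and 4 wild-type libraries of mesenteric artery, and 4 deletion and 3 wild-type libraries of kidney cortex. The labels used here give neither the age, the diet nor the number of founder lines, and none states that libraries come from separate animals, so SDs and p-values measure only how these libraries vary, which may be technical.

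Macrophages are phagocytes that sit in every tissue, where they clear dead cells, blood pigments and microbes and feed signals to their neighbours. They depend on colony-stimulating factor 1 acting on its receptor Csf1r, and on the transcription factor PU.1, which is encoded by Spi1. In the wall of small arteries and the fat around it, resident macrophages rich in scavenger receptors such as Cd163, Mrc1 and Lyve1 lie beside the vessel. In the kidney they lie between the tubules and are rich in complement C1q and in the fractalkine receptor Cx3cr1.

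Depth is unknown, because the values are FPKM, fragments scaled to the length of the gene and to the size of the library. Summed FPKM ran from 285679 to 433477 in the arteries and from 376270 to 459847 in the kidneys. No gene with an identifier in the table lies in the deleted interval, and so no such gene could check the genotype labels. Rows without an identifier were not searched for this. Smooth muscle markers summed to 1213 to 2535 FPKM in the arteries and 21.6 to 47.9 FPKM in the kidneys, and proximal tubule markers to 1.35 to 3.77 FPKM in the arteries and 1426 to 2102 FPKM in the kidneys. Adipocyte markers reached 1181 to 2200 FPKM in the arteries, against 10.5 to 21.9 FPKM in the kidneys. Haemoglobin transcripts took 33% of the sum in artery wild-type 4 and 1.61% to 12% in the other arteries. The library labelled kidney wild-type 3 goes against its male label: Xist, a transcript of the silenced X, reached 81.1 FPKM there and 0.0989 to 1.3 FPKM in the other 14 libraries, and the Y-linked Eif2s3y was listed at 0 there and lay between 24.1 and 39.6 FPKM in the others. Genotype differences in kidney are therefore also given without it.

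RefSeq promoters (GRCr8, 250 bases before to 50 bases after the start, 300 in all) were matched by symbol for 21 of the 30 genes; the other 9 are C1qc, Aif1, Siglec1, Clec10a, Msr1, Fcgr1a, Fcgr2b, Fcer1g and Tyrobp. The core letters bound by PU.1, GAGGAA, were searched on both strands, so that the opposite strand reads TTCCTC. They occurred in 14 of the 21 promoters (66.7%), against 27.6% of 33469 promoters of the same length in the same RefSeq table. The longer GAGGAAGT, which contains the core, occurred in 1 of the 21, that of Ctss, against 2.42% of all promoters. A match describes the letters only, and base composition was not matched. Csf1r and Cd68 are shown as identity genes, Cd163, Stab1 and Timd4 as the genes with the highest log2 difference between the tissues on the log2(FPKM + 0.5) scale, and Mertk as the gene that differed the other way. Capitals mark the core on either strand, and all 6 read from 5′ to 3′ along the gene's strand.
Csf1r (chr18:56834129-56834428, plus strand): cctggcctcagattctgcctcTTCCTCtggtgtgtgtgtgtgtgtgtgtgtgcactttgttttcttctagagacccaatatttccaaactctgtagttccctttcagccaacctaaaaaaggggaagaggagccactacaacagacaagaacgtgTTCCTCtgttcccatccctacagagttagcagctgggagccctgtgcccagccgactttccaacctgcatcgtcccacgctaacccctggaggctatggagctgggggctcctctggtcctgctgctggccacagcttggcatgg
Cd68 (chr10:54882392-54882691, minus strand): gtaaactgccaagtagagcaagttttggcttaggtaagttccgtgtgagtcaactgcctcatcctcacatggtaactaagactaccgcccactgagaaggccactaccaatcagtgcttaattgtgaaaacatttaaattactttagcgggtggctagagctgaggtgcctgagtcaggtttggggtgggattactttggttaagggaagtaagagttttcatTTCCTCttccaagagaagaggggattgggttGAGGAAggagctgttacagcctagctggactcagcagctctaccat
Stab1 (chr16:6367310-6367609, minus strand): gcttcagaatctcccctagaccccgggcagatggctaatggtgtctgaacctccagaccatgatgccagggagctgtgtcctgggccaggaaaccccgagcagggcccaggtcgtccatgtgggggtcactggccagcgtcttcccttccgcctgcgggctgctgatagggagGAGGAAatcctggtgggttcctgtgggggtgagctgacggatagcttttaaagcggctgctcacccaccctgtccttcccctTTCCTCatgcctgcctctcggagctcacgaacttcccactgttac
Cd163 (chr4:158770524-158770823, plus strand): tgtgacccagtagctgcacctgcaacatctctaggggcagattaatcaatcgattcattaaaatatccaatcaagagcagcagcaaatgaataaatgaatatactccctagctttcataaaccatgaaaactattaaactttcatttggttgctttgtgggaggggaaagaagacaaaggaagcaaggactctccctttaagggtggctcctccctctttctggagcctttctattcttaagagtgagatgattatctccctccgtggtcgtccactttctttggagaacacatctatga
Timd4 (chr10:31686744-31687043, plus strand): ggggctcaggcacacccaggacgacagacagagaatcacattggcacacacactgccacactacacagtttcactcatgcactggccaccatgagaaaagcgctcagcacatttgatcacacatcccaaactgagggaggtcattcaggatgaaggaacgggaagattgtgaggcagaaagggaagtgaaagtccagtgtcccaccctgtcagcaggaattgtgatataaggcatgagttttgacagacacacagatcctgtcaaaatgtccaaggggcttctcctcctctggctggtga
Mertk (chr3:136392324-136392623, plus strand): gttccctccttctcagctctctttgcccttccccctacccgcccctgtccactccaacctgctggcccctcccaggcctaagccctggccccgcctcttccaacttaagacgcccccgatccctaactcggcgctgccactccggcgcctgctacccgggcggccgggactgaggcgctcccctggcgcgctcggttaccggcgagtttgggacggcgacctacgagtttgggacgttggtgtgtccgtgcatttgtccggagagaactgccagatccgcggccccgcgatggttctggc
The core stands 2 times each in the Csf1r, Cd68 and Stab1 windows and 0 times in those of Cd163, Timd4 and Mertk.

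In the arteries the 30 genes spanned levels from Lyz2, the lysozyme gene, at 188 FPKM ± 102 (SD, n = 8) to Vsig4, a complement receptor of resident macrophages, at 0.555 ± 0.176 (SD, n = 8). Mean levels of 20 FPKM or more were reached by 8 genes in artery and by 3 in kidney. In artery these were Lyz2, C1qc, Stab1, C1qa, Csf1r, Ctss, Laptm5 and Aif1, and in kidney Lyz2, Ctss and Aif1. In kidney 5 genes fell under a mean of 0.5 FPKM, against 0 in artery. These 5 were Cd163, Marco, Siglec1, Timd4 and Vsig4, and they were not tested between genotypes in kidney. The first 3 were listed here as scavenger receptors and lectins, the others as receptors for dying cells, lipids, complement and folate. Of these lists, 4 of 7 and 3 of 5 genes averaged 0.5 FPKM or more in kidney.

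**Figure D1:**
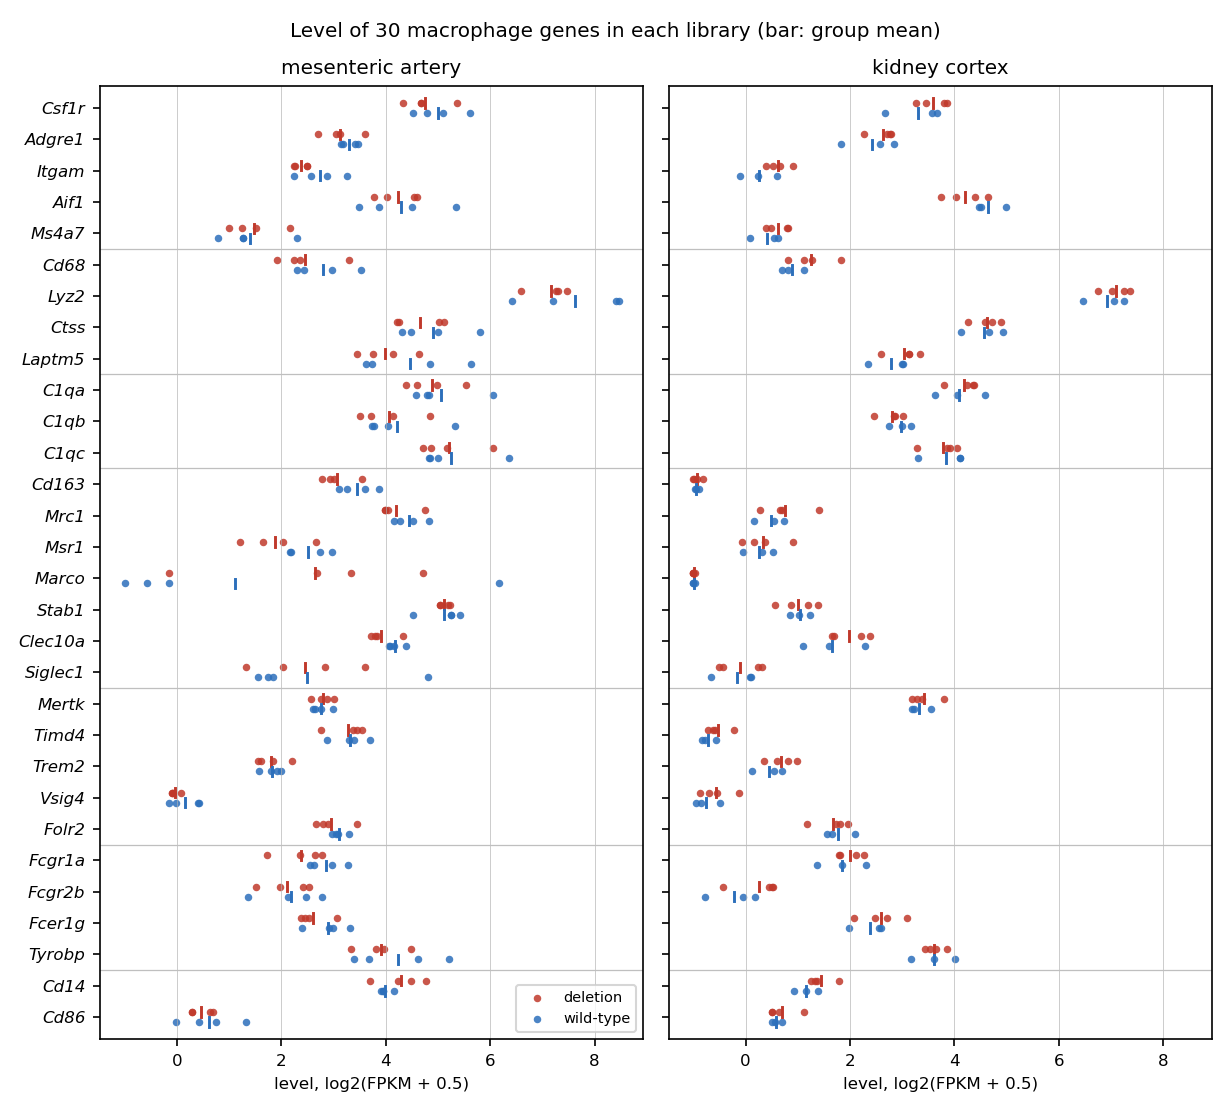
Level of each of the 30 genes in each library, as log2(FPKM + 0.5) on the horizontal axis, with mesenteric artery on the left and kidney cortex on the right. Red points are deletion and blue points wild-type libraries, vertical bars are group means, and genes are ordered by role. Deletion and wild-type points overlap in every row, while Cd163, Marco and Timd4 sit at the floor in the kidneys.

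Set against kidney, artery had higher levels of most of these genes. Among those that averaged 0.5 FPKM or more in both tissues, Stab1, Mrc1 and Cd14 had the widest gaps. Their log2 differences were 4.10, 3.70 and 2.84. Cd163, Marco, Siglec1, Timd4 and Vsig4 could enter the test only through their level in artery, so counts are given for the 25 genes that averaged 0.5 FPKM or more in both tissues. Of these 25, 18 were called higher in artery and 1 lower (limma, adjusted p under 0.05), beside 38.8% higher and 35.2% lower of the 14072 genes with that level in both tissues. Of all 17842 genes tested, 77.4% were called, 42.4% higher and 35% lower. The median difference of the 25 was 1.25 on the log2(FPKM + 0.5) scale, against 0.05 for the 14072 genes, and without kidney wild-type 3 the counts were also 18 and 1 and the medians 1.19 and 0.03. With median-of-ratios scaling the median of all 17842 genes was 0.000571, against 0.13 without it. The 8 arteries and the 7 kidneys did not overlap for 14 of the 25 that were higher in artery and 1 that was lower, beside 22.4% and 23.1% of the genes with that level in both tissues, and 25.7% and 24.2% of all genes tested. In bulk tissue, fewer macrophages and less RNA per macrophage cannot be told apart, and smooth muscle, fat, blood and tubule content differed between the tissues as given above; their part in these differences was not tested.

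All 7 scavenger receptors and lectins were called higher in artery, among them Cd163, Marco and Siglec1, which entered through artery alone. This count and the counts by role that follow stand beside 42.4% of all genes tested called higher and 35% lower. Cd163, which takes up haemoglobin bound to haptoglobin (rn7 chromosome 4, 157085080 to 157118470, plus strand), ran from 6.37 over a median of 8.63 to 14.0 FPKM in artery, against 0 over 0.0166 to 0.0687 FPKM in kidney. Its log2 difference was 4.20 (SE 0.14, limma adjusted p = 2.17e-13), the largest of the 30. Every artery stood above every kidney, and 1 kidney was listed at 0. Stab1, a scavenger receptor for modified lipoproteins and matrix fragments (chromosome 16, 6330435 to 6360934, minus strand), ran from 22.6 over 36.4 to 42.4 FPKM in artery, against 0.988 over 1.54 to 2.11 FPKM in kidney. The log2 difference was 4.10 (SE 0.14, limma adjusted p = 4.49e-13), a fold of 17.1 on that scale.

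Mrc1, the mannose receptor (chromosome 17, 77249187 to 77330857, plus strand), ran from 15.4 over 18.2 to 28.0 FPKM in artery, against 0.617 over 1.09 to 2.15 FPKM in kidney. The log2 difference was 3.70 (SE 0.17, limma adjusted p = 2.06e-11), and the tissues did not overlap. Marco, a receptor for bacteria and particles found on macrophages of the spleen and lymph node (chromosome 13, 31616278 to 31648521, minus strand), was listed at 0 in 5 of 7 kidneys and stood at 0.0130 and 0.0104 FPKM in the others. The arteries ran from 0 over 3.17 to 71.1 FPKM, so that 1 artery lay within the kidneys. Its log2 difference of 2.87 (SE 0.92, limma adjusted p = 0.0103) had the widest error of the 30 and became 4.47 with a pseudocount of 0.1. Siglec1, a sialic acid receptor, Clec10a, a galactose lectin, and Msr1, which takes up modified lipoproteins, differed by 2.60, 2.22 and 1.90 on the log2 scale.

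Of the 5 receptors for dying cells, lipids, complement and folate, 4 were higher in artery and 1 was lower; Timd4 and Vsig4 entered through artery alone. Timd4, which binds phosphatidylserine on dying cells (chromosome 10, 31185751 to 31221843, plus strand), ran from 6.25 over 9.89 to 12.5 FPKM in artery, against 0.0637 over 0.148 to 0.353 FPKM in kidney. The log2 difference was 3.93 (SE 0.15, limma adjusted p = 1.41e-12), with no overlap. Mertk, a kinase receptor for the same kind of cargo (chromosome 3, 115939351 to 116045141, plus strand), went the other way, at 5.47 over 6.30 to 7.50 FPKM in artery, against 8.58 over 9.25 to 13.5 FPKM in kidney. Its log2 difference was -0.59 (SE 0.11, limma adjusted p = 0.00015), again with no overlap. Folr2, a folate receptor of resident macrophages, Trem2, a lipid receptor, and Vsig4 were higher by 1.3, 1.24 and 0.72 on the log2 scale, and only for Vsig4 among these 3 did the tissues overlap.

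Of the 5 identity and growth receptor genes, 4 were called higher in artery. Csf1r averaged 30.2 ± 9.89 FPKM over the 8 arteries and 10.9 ± 2.80 FPKM over the 7 kidneys (SD), a log2 difference of 1.43 (SE 0.20). Adgre1, which encodes F4/80, averaged 8.91 ± 1.79 (SD, n = 8) and 5.45 ± 1.32 FPKM (SD, n = 7) in artery and kidney, a log2 difference of 0.69. Itgam, the alpha chain of the integrin CD11b/CD18, and Ms4a7, a membrane protein of resident macrophages, differed by 2.12 and 0.92 on the log2 scale. Aif1, which encodes the calcium-binding protein Iba1, did not pass, with a mean level of 20.3 FPKM in artery and 21.2 FPKM in kidney.

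The 3 chains of C1q, the recognition unit of the classical complement pathway, were all called higher in artery. Their mean levels in artery and kidney were 33.2 and 17.6 FPKM for C1qa, 18.8 and 6.91 for C1qb, and 40.6 and 13.8 for C1qc. The log2 differences were 0.83, 1.25 and 1.42 in that order, and the tissues overlapped only for C1qa among the 3. Of 4 lysosomal genes, Cd68 (6.15 FPKM in artery and 1.71 in kidney) and Laptm5 (20.8 and 7.32) were called higher by 1.56 and 1.31 on the log2 scale. Lyz2 (188 and 132 FPKM) and Ctss, the protease cathepsin S (28.9 and 24.1 FPKM), did not pass.

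Of the 4 Fc receptors and adaptors, Fcgr2b, the inhibitory receptor for immunoglobulin G, and Fcgr1a, the high-affinity one, were called higher by 2.12 and 0.70 on the log2 scale. The signalling adaptors of the list did not pass: the log2 difference was 0.27 for Fcer1g and 0.45 for Tyrobp, with adjusted p of 0.166 and 0.103. Cd14, the co-receptor for bacterial lipopolysaccharide (chromosome 18, 28335522 to 28337383, minus strand), ran from 12.4 over 16.1 to 26.7 FPKM in artery, against 1.41 over 2.02 to 2.98 FPKM in kidney. Its log2 difference was 2.84 (SE 0.14, limma adjusted p = 4.29e-11), and no kidney reached the lowest artery. Without kidney wild-type 3, the log2 differences between tissues were 4.19 for Cd163, 4.05 for Stab1, 3.90 for Timd4, 3.62 for Mrc1, 2.87 for Marco, 2.84 for Cd14 and -0.61 for Mertk. Cd86, a co-stimulator of T cells, stood at 1.01 FPKM in artery and 1.08 FPKM in kidney and did not pass.

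**Figure D2:**
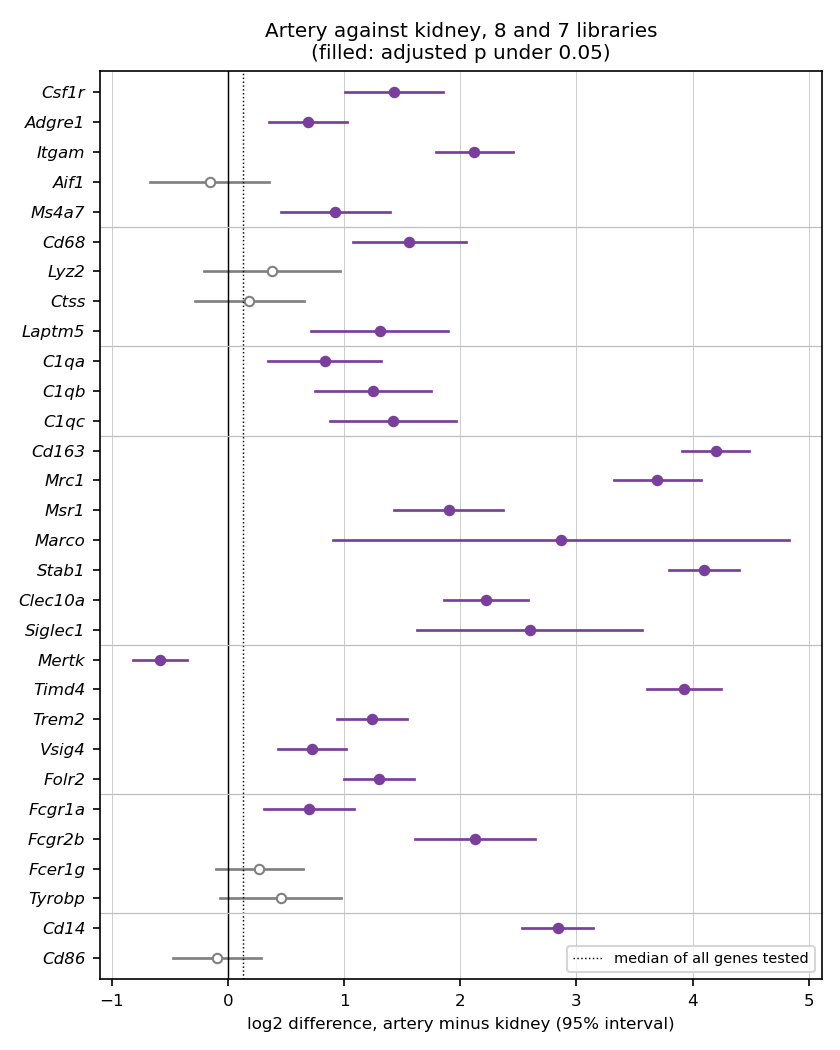
Log2 difference of each of the 30 genes, artery minus kidney, over 8 arteries and 7 kidneys, with 95% intervals from limma; filled points passed an adjusted p under 0.05 and the dotted line is the median of all genes tested. The scavenger receptors reach 1.90 to 4.20, while Mertk is the one filled point on the negative side, at -0.59.

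The mix of macrophage genes differed between the tissues as well as the sum. Relative to Csf1r in the same library, Cd163 had a median ratio of 0.281 in artery and 0.00183 in kidney, Timd4 of 0.332 and 0.0110, Stab1 of 1.34 and 0.131, and Mrc1 of 0.634 and 0.102. The ratios of C1qc (1.33 in artery, 1.34 in kidney), C1qb (0.619 and 0.617) and Ms4a7 (0.0882 and 0.0884) lay close together. Others were lower in artery: Mertk had 0.216 and 0.941, Aif1 0.649 and 1.78, Ctss 0.888 and 2.16, and Lyz2 6.22 and 12.1 in artery and kidney. The remaining C1q chain, C1qa, was also lower in artery, at 1.09 and 1.48. Several of these genes are also read in cells other than macrophages (Stab1 in some endothelium, Mertk in some epithelium), and which cells held the transcripts was not tested.

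Of 36 further genes of macrophage biology, 35 were in the table and 28 were tested between tissues, and limma called 16 higher and 8 lower in artery, beside the 42.4% and 35% of all genes tested. Among the growth factors and their receptors, Csf1 was higher (23.8 FPKM in artery, 4.52 in kidney, log2 difference 2.32), and so was the receptor chain Csf2ra (4.85 and 3.12, 0.57). Il34, the other ligand of Csf1r, was lower (5.74 and 19.0, -1.67), as was the receptor chain Csf2rb (10.2 and 54.6, -2.54). The ligands of Csf1r thus differed in opposite directions. Fat, smooth muscle and tubule content differed between the tissues as given above, and which cells held the transcripts of the further genes was not tested.

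Of the lineage transcription factors, Cebpa (69.8 FPKM in artery and 22.4 in kidney, log2 difference 1.59), Spi1 (4.92 and 2.53, 0.71) and Cebpb (14.1 and 10.9, 0.42) were higher, while Maf (28.5 and 75.0, -1.39) was lower. Of 4 recruitment genes, the chemokine Ccl2 (5.39 and 2.11, 1.2) and its receptor Ccr2 (3.26 and 1.29, 1.2) were higher. The other ligand and receptor pair, Cx3cl1 (2.50 and 16.5, -2.52) and Cx3cr1 (1.42 and 3.36, -1.06), was lower. Among 3 shared leukocyte genes, Ptprc (26.2 and 6.01, 1.85), Itgb2 (10.8 and 3.90, 1.17) and Cybb, an oxidase subunit (21.3 and 12.3, 0.75), were all higher.

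Of 7 tested genes of activation state and products, 4 were higher and 1 was lower. Gpnmb (14.1 FPKM in artery and 2.79 in kidney, log2 difference 2.33), the galectin Lgals3 (40.0 and 7.65, 2.34), Tgfb1 (14.0 and 6.07, 1.17) and Arg1 (2.61 and 0.811, 1.08) were higher. Spp1, the osteopontin gene, which tubule cells also express, was lower (4.38 and 379, -6.13). Of the residence and iron handling genes, Lyve1 (15.4 and 1.70, 2.80) and the haem-degrading Hmox1 (6.73 and 2.53, 1.04) were higher, and the iron exporter Slc40a1 (23.8 and 34.5, -0.58) was lower. Il1b, Apoe, Nr1h3 and Irf8 did not pass, and 7 genes, Csf2, Tnf, Nos2, Retnla, Il10, Cd5l and Clec4f, were too low to test.

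Within the arteries, single libraries stood high for many of these genes. Artery wild-type 3 had the highest level of 19 of the 30 genes and was among the highest 2 for 25. Artery deletion 3 was among the highest 2 for 17. Leaving out Lyz2, the 30 genes summed to 287, 363, 527 and 297 FPKM in the deletion arteries, against 330, 319, 721 and 376 FPKM in the wild-type arteries. With Lyz2 the sums were 383, 521, 704 and 449 FPKM in deletion, against 415, 465, 1062 and 727 FPKM in wild-type arteries. Number 3 was the highest artery of each genotype on both sums, and with Lyz2 wild-type 4 also stood above every deletion artery. In the kidneys, deletion 2 had the highest level of 17 genes and wild-type 3, the library that goes against its label, the lowest of 16. Without Lyz2 the kidney sums were 173, 178, 118 and 162 FPKM in deletion, against 160, 188 and 117 FPKM in wild-type, and these overlap. With Lyz2 they were 337, 329, 224 and 291 FPKM in deletion, against 293, 339 and 205 FPKM in wild-type kidneys, and overlap too.

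**Figure D3:**
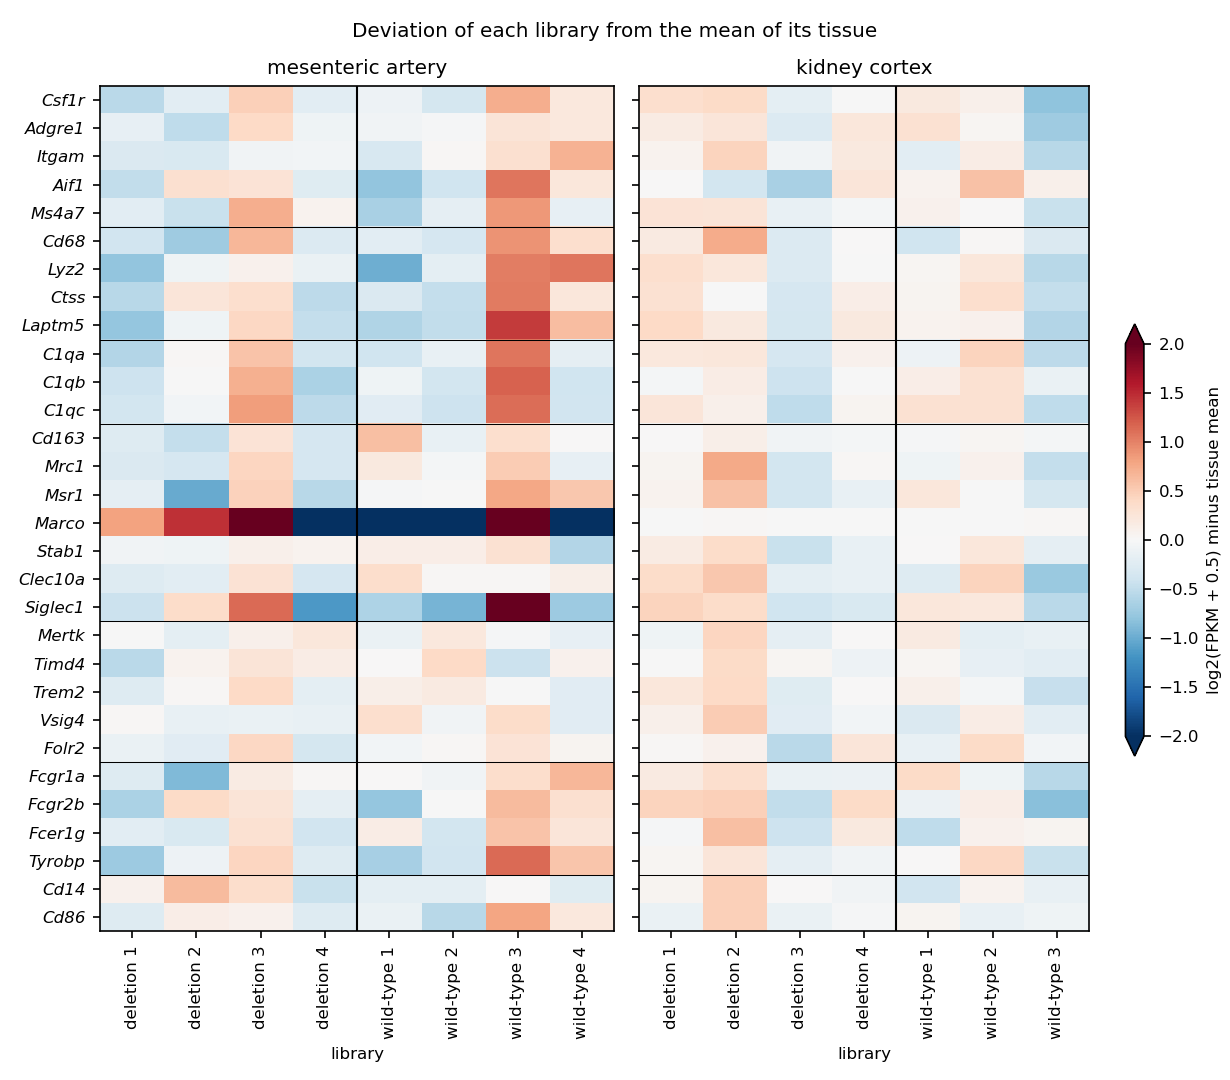
Deviation of each library from the mean of its tissue, as log2(FPKM + 0.5), for the 30 genes in rows and the libraries in columns, deletion left of the black line and wild-type right of it; red is above and blue below the tissue mean. Artery wild-type 3 and artery deletion 3 are red over most rows, so red columns occur in both genotypes, and kidney wild-type 3 is blue.

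Marco and Siglec1 varied most between arteries. Marco stood at 5.94, 9.57, 25.7 and 0.401 FPKM in the deletion arteries, against 0.176, 0.397, 71.1 and 0 FPKM in the wild-type arteries. It was thus above 5 FPKM in 3 deletion arteries and 1 wild-type artery and below 0.5 FPKM in the other 4, and the groups overlapped. Siglec1 stood at 3.62, 6.65, 11.7 and 2.01 FPKM in deletion, against 3.10, 2.42, 27.4 and 2.86 FPKM in wild-type arteries. The 4 arteries with the most Marco were also the 4 with the most Siglec1.

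Transcripts of B and plasma cells also varied between arteries. The markers of the B cell list summed to 4.57, 96.9, 15.8 and 9.23 FPKM in deletion, against 7.26, 5.24, 136 and 16.5 FPKM in wild-type arteries, and those of plasma cells to 19.3, 62.5, 58.2 and 15.998 FPKM in deletion, against 17.5, 17.2, 103 and 15.7 FPKM in wild-type arteries. Deletion 1, which held more Marco than 4 of the other arteries, had the lowest B cell sum of all 8. Jchain, the joining chain of secreted antibodies, stood at 6.13, 40.7, 39.3 and 1.69 FPKM in deletion, against 0.789, 1.4, 78.5 and 2.67 FPKM in wild-type arteries, and its 4 highest arteries were the 4 with the most Marco. Cr2, a complement receptor of B cells and follicular dendritic cells, stood at 0.402, 20.8, 2.83 and 0.446 FPKM in deletion, against 0.861, 0.306, 34.8 and 0.870 FPKM in wild-type arteries, and 3 of its 4 highest arteries were shared with Marco. Jchain, 1 of the 3 plasma cell markers, and Cr2, 1 of the 7 B cell markers, were picked out after their values were seen. The other single markers of these lists were not ranked against Marco. The part of lymphoid cells in the levels of the 30 genes was not tested.

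**Figure D4:**
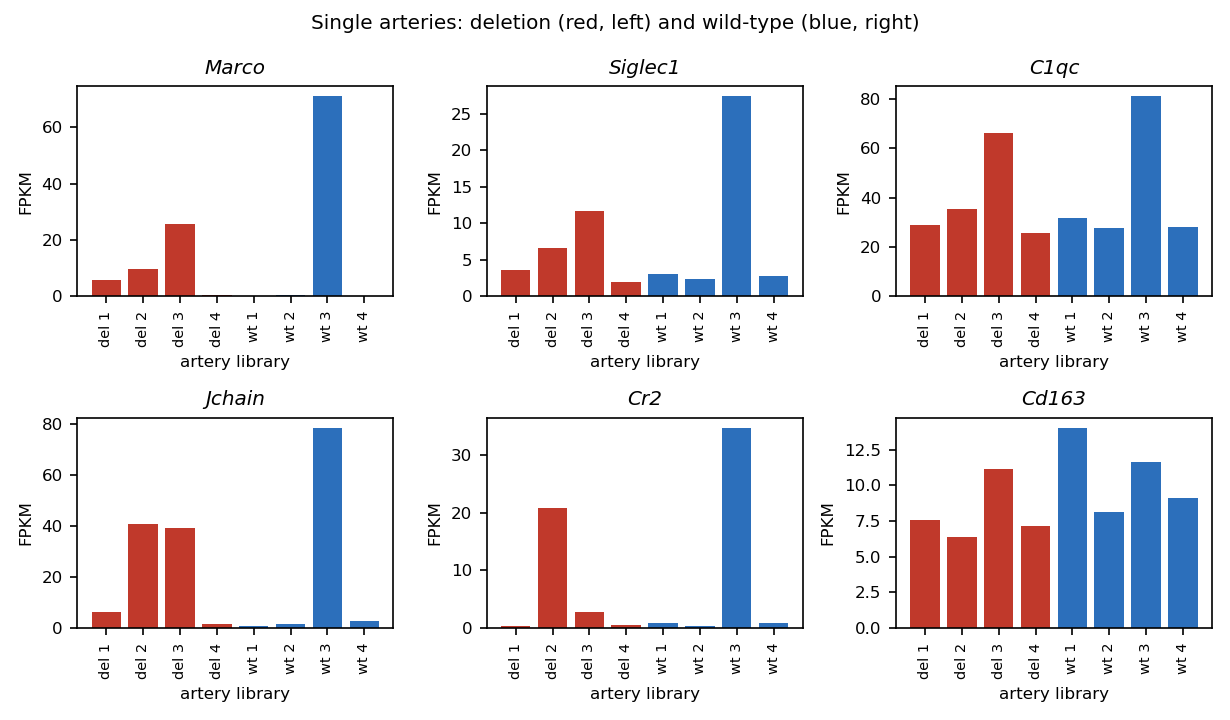
Level in FPKM of Marco, Siglec1, C1qc, Jchain, Cr2 and Cd163 in each of the 8 arteries, 1 bar per library from 0, deletion in red on the left and wild-type in blue on the right. Wild-type 3 has the tallest bar for Marco, Siglec1, Jchain and Cr2, with deletion 2 or deletion 3 next. It has the tallest wild-type bar for C1qc, while wild-type 1 has the tallest bar for Cd163.

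None of the 30 genes passed the test between deletion and wild-type arteries. Limma called 0 of 30, beside 0% of 16470 genes (0 of 16470), and 0 of 30 passed an unadjusted p under 0.05, beside 3.72% of all genes that passed it higher and 1.52% lower. Fold changes were below 0 for 25 genes and above 0 for 5, with a median of -0.18 on the log2 scale, while all genes had a median of 0.04 and 40.3% below 0. The median was -0.03, with 16 below 0 and 14 above, without artery wild-type 3, and -0.40 without artery deletion 3. It was -0.19 without deletion 2 alone and -0.02 without wild-type 3 and deletion 2 together. This pair was picked by its values, as the arteries with the most B cell transcripts. All 30 genes overlapped between the genotypes, while 2.3% of all genes lay apart higher in deletion and 0.953% lower. The summed B cell markers ran from 4.57 to 96.9 FPKM in deletion and 5.24 to 136 FPKM in wild-type arteries, T and NK cell markers from 5.44 to 42.4 and 9.42 to 81.0 FPKM, mast cell markers from 13.4 to 61.2 and 23.2 to 140 FPKM in the same order, with no marker of these 3 lists at 0 in all arteries of a genotype; their part in the differences was not tested.

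Msr1 (chromosome 16, 52717775 to 52803602, plus strand) had the smallest p of the 30, at 3.57, 1.80, 5.86 and 2.63 FPKM in deletion arteries, against 4.01, 4.07, 7.34 and 6.18 FPKM in wild-type arteries. This gave a log2 fold change of -0.63 (SE 0.31; limma adjusted p = 0.893, unadjusted p = 0.069), which was -0.41 without deletion 2. Fcgr1a (chromosome 2, 183851075 to 183860077, minus strand) stood at 4.64, 2.83, 6.37 and 5.77 FPKM in deletion arteries, against 5.70, 5.38, 7.39 and 9.23 FPKM in wild-type arteries. Deletion 2 was the lowest artery for both genes, and the Fcgr1a value of -0.48 (SE 0.24, adjusted p = 0.893) was -0.26 without it.

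Cd163 stood at 7.56, 6.37, 11.1 and 7.13 FPKM in deletion, against 14.0, 8.14, 11.6 and 9.12 FPKM in wild-type arteries, with a log2 fold change of -0.39 (SE 0.20, limma adjusted p = 0.893). Of the deletion arteries only number 3 reached the wild-type range, and the value was -0.26 without wild-type 1. Itgam (chromosome 1, 182659047 to 182709501, plus strand) stood at 4.30, 4.25, 5.12 and 5.14 FPKM in deletion, against 4.22, 5.45, 6.83 and 9.01 FPKM in wild-type arteries. In log2 terms the fold change was -0.36 (SE 0.20, limma adjusted p = 0.893), and -0.19 without wild-type 4, the highest.

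Clec10a (chromosome 10, 54876244 to 54880439, plus strand) stood at 13.3, 13.7, 19.6 and 12.6 FPKM in deletion, against 20.5, 16.2, 16.4 and 17.5 FPKM in wild-type arteries. That is a log2 fold change of -0.26 (SE 0.14, limma adjusted p = 0.893), and -0.40 without deletion 3, the one deletion artery within the wild-type range. Mrc1 stood at 15.9, 15.4, 26.3 and 15.4 FPKM in deletion, against 22.3, 18.9, 28.0 and 17.4 FPKM in wild-type arteries. Here too deletion 3 alone lay within the wild-type range, and the log2 fold change of -0.26 (SE 0.20, limma adjusted p = 0.896) was -0.44 without it and -0.13 without wild-type 3.

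Fcer1g (chromosome 13, 83649447 to 83654248, minus strand) stood at 5.31, 4.98, 7.88 and 4.68 FPKM in deletion, against 6.99, 4.76, 9.49 and 7.47 FPKM in wild-type arteries. Its log2 fold change was -0.30 (SE 0.21, limma adjusted p = 0.893), -0.16 without wild-type 3, -0.45 without deletion 3 and -0.47 without wild-type 2. Cd14 was the one of the 8 with a value above 0, at 18.2, 26.7, 21.9 and 12.4 FPKM in deletion, against 14.8, 14.95, 17.3 and 14.5 FPKM in wild-type arteries. Deletion arteries lay on both sides of the wild-type range, and the log2 fold change of 0.31 (SE 0.20, limma adjusted p = 0.893) was 0.15 without deletion 2 and 0.51 without deletion 4.

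The genes that mark macrophages most broadly had wide intervals in the arteries. Csf1r averaged 27.5 FPKM ± 8.98 in deletion and 32.9 ± 11.3 in wild-type arteries (SD, n = 4 each), with a log2 fold change of -0.24 (95% interval -0.83 to 0.35). Cd68 averaged 5.39 ± 2.71 and 6.92 ± 3.03 FPKM, and Adgre1 8.41 ± 2.37 and 9.41 ± 1.10 FPKM (SD, n = 4 each, deletion and wild-type). C1qa, C1qb and C1qc averaged 30.4, 17.2 and 39.1 FPKM in deletion, against 36.0, 20.4 and 42.2 FPKM in wild-type arteries. The interval of the C1qc fold change reached from -0.92 to 0.81 on the log2 scale, so a difference of nearly 1 in either direction lay within it. Stab1 (34.4 ± 2.37 FPKM in deletion, 35.1 ± 8.60 in wild-type) and Trem2 (3.05 ± 0.771 and 3.07 ± 0.426, SD, n = 4 each) had fold changes of 0.01 and -0.02. For Marco, the mean was lower in deletion (10.4 FPKM, against 17.9 in wild-type) while the log2 fold change was 1.53 (SE 1.57), so the sign depends on the scale.

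In the kidneys, limma called 0 of the 25 genes tested, beside 0% of 15444 genes, and 0 of 25 passed an unadjusted p under 0.05, beside 0.939% of all genes that passed it higher and 0.466% lower. Fold changes were above 0 for 20 genes and below 0 for 5, beside 39.8% of all genes below 0. The median was 0.17 on the log2 scale, against 0.04 for all genes. Without wild-type 3, the library that goes against its label, 12 were above and 14 below 0 of the 26 then tested. Their median was then -0.04, against 0.0017 for all genes, of which 49.5% lay below 0. With array weights, 10 were above and 15 below 0, beside 41.4% of all genes below 0. The genotypes overlapped for all 25 genes, while 1.54% of all genes lay apart higher in deletion and 1.01% lower. Of the other cell types, dendritic cell markers summed to 6.14 to 13.9 FPKM in deletion and 4.83 to 10.6 FPKM in wild-type kidneys, with wild-type 3 the lowest and no marker at 0 in all kidneys of a genotype; their part was not tested.

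Aif1 (chromosome 20, 3646784 to 3652670, plus strand) had the smallest p in kidney, at 20.6, 15.8, 12.9 and 24.4 FPKM in deletion kidneys, against 21.7, 31.2 and 22.1 FPKM in wild-type kidneys. Of the deletion kidneys only number 4 lay within the wild-type range. The log2 fold change, -0.45 (SE 0.22; limma adjusted p = 0.999, unadjusted p = 0.0692), was -0.30 without deletion 3, -0.28 without wild-type 2 and -0.53 without wild-type 3. Itgam stood at 0.939, 1.38, 0.806 and 1.07 FPKM in deletion, against 0.685, 1.02 and 0.432 FPKM in wild-type kidneys. Its log2 fold change of 0.37 (SE 0.24, limma adjusted p = 0.999) was 0.19 without wild-type 3 and turned to -0.021 with array weights.

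Fcgr2b (chromosome 13, 83191253 to 83207778, minus strand) stood at 0.917, 0.947, 0.241 and 0.858 FPKM in deletion, against 0.461, 0.640 and 0.0858 FPKM in wild-type kidneys. The lowest kidney of each genotype stood apart from its others, and the log2 fold change of 0.47 (SE 0.32, limma adjusted p = 0.999) was 0.20 without wild-type 3 and 0.85 with a pseudocount of 0.1. Cd68 (chromosome 10, 54381814 to 54383693, minus strand) stood at 1.91, 3.07, 1.27 and 1.66 FPKM in deletion, against 1.13, 1.69 and 1.26 FPKM in wild-type kidneys. Deletion 2 was the highest, and the log2 fold change of 0.38 (SE 0.26, limma adjusted p = 0.999) was 0.19 without it and 0.34 without wild-type 3.

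Csf1r (chromosome 18, 54546673 to 54590418, plus strand) stood at 13.5, 13.9, 9.13 and 10.5 FPKM in deletion, against 12.2, 11.4 and 5.83 FPKM in wild-type kidneys. Its log2 fold change of 0.30 (SE 0.25, limma adjusted p = 0.999) turned to -0.024 without wild-type 3 and was 0.48 without wild-type 1. Cd14 stood at 2.10, 2.98, 2.02 and 1.88 FPKM in deletion, against 1.41, 2.11 and 1.74 FPKM in wild-type kidneys, a log2 fold change of 0.28 (SE 0.21, limma adjusted p = 0.999). It was 0.16 without deletion 2 and also without wild-type 1, 0.28 without wild-type 3, and turned to -0.016 with array weights.

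Laptm5, a lysosomal membrane protein of blood cells (chromosome 5, 143087759 to 143109807, plus strand), stood at 9.62, 8.21, 5.52 and 8.22 FPKM in deletion, against 7.52, 7.60 and 4.57 FPKM in wild-type kidneys. Its log2 fold change of 0.26 (SE 0.22, limma adjusted p = 0.999) shrank to 0.03 when wild-type 3 was left out and to 0.16 when deletion 1 was, and became 0.41 without deletion 3. Clec10a stood at 4.12, 4.72, 2.64 and 2.74 FPKM in deletion, against 2.52, 4.40 and 1.64 FPKM in wild-type kidneys. Its log2 fold change of 0.32 (SE 0.30, limma adjusted p = 0.999) shrank to 0.04 when wild-type 3 was left out and to 0.19 when deletion 2 was, and became 0.64 without wild-type 2 and -0.30 under array weights.

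The other broad markers overlapped between the genotypes in kidney. Mrc1 averaged 1.27 FPKM ± 0.612 (SD, n = 4) in deletion and 0.914 ± 0.274 (SD, n = 3) in wild-type kidneys, and Adgre1 5.75 ± 0.984 and 5.05 ± 1.83 FPKM. C1qa, C1qb and C1qc averaged 18.0, 6.53 and 13.5 FPKM in deletion, against 17.1, 7.42 and 14.3 FPKM in wild-type kidneys, differences smaller than the SD within a genotype for each chain. Their log2 fold changes were 0.10, -0.18 and -0.07 with all kidneys and -0.12, -0.29 and -0.34 without wild-type 3. For Mrc1 and Adgre1 they were 0.28 and 0.22 with all kidneys, and 0.12 and -0.07 without wild-type 3. Cd163 averaged 0.0261 FPKM in deletion and 0.0212 FPKM in wild-type kidneys and was not tested there.

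**Figure D5:**
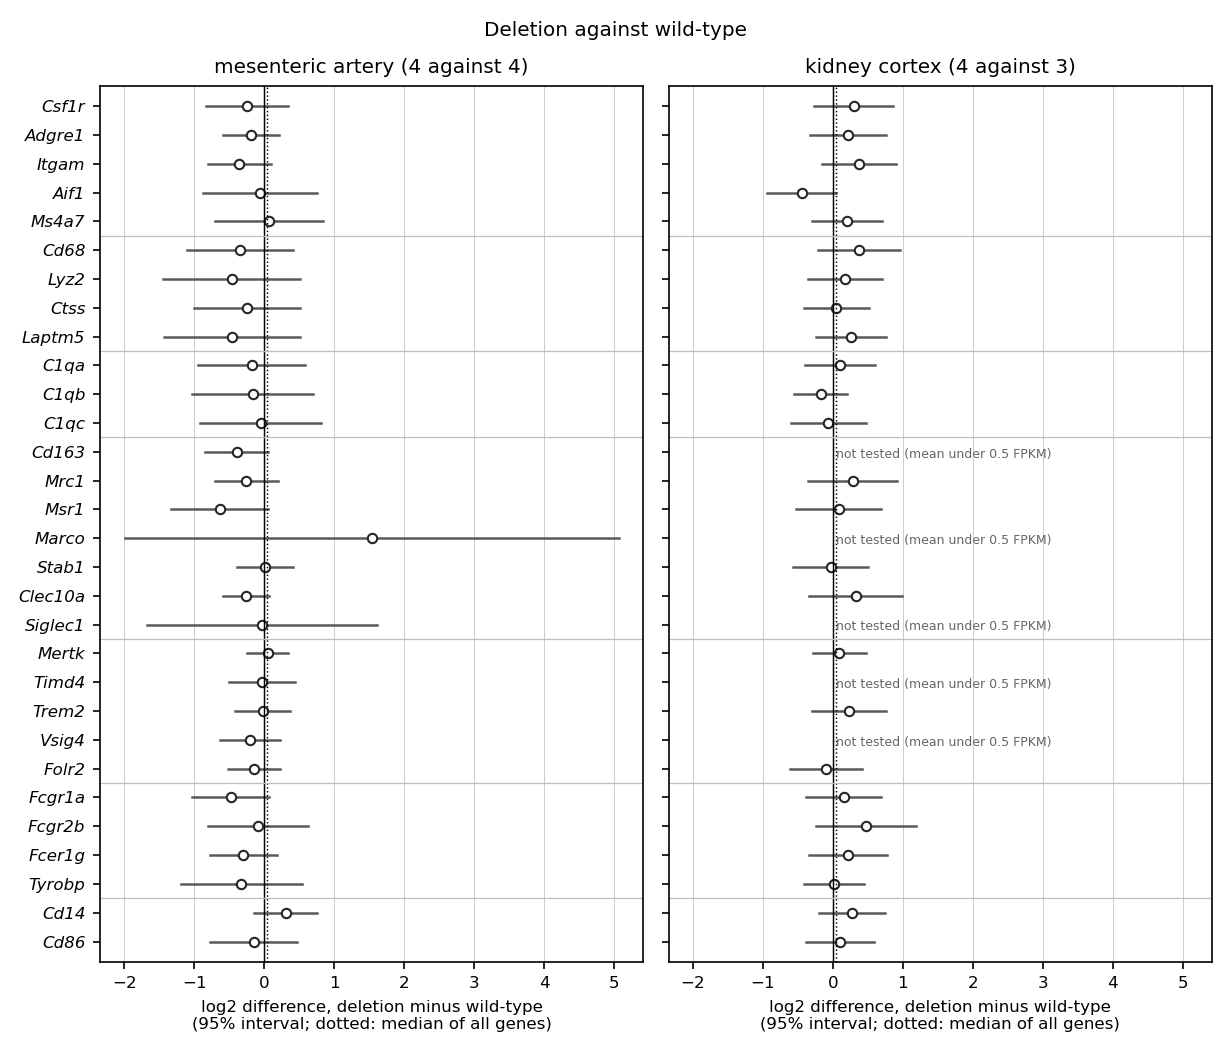
Log2 fold change of each of the 30 genes, deletion minus wild-type, in artery (left, 4 against 4 libraries) and kidney (right, 4 against 3), with 95% intervals from limma; the dotted line is the median of all genes, and 5 genes were not tested in kidney. All intervals cross 0. In artery 25 of 30 points lie below 0, beside 40.3% of all genes. In kidney 20 of 25 points lie above 0, and 39.8% of all genes lie below 0. The split of the points was near even without wild-type 3 of each tissue. Without deletion 3 of each tissue it was 27 of 30 below 0 in artery and 23 of 25 above 0 in kidney.

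The deletion effect in artery minus that in kidney was tested directly, and limma called 0 of the 30 genes, beside 0% of 17842. Only Itgam passed an unadjusted p under 0.05, beside 2.45% of all genes that passed it higher and 1.85% lower. Its log2 difference of effects was -0.73 (SE 0.31, limma unadjusted p = 0.0326, adjusted p = 0.947), -0.55 without kidney wild-type 3 (unadjusted p = 0.101, adjusted p = 0.9998 by limma) and -0.31 with array weights. Fcgr1a and Clec10a had differences of -0.63 (SE 0.36) and -0.58 (SE 0.34), each with an adjusted p of 0.947. The Fcgr1a value was -0.42 without artery deletion 2 and -0.40 without kidney wild-type 3, and that of Clec10a -0.90 without kidney wild-type 2, -0.30 without kidney wild-type 3 and, under array weights, 0.017. Of the 25 genes tested in both tissues, 20 had differences below 0, with a median of -0.34, against 49.8% and a median of 0.000901 for the 14072 genes tested in both. Without kidney wild-type 3, 17 of the 25 lay below 0, with a median of -0.13, against 44.1% and 0.04.

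Among the further genes of macrophage biology, limma called 0 of 28 between genotypes in artery and 0 of 28 in kidney. In artery 1 of them passed an unadjusted p under 0.05, lower in deletion, beside 1.52% of all genes that did so lower and 3.72% higher. Ccr2, the receptor that brings monocytes into tissue, stood at 2.53, 1.99, 2.91 and 3.20 FPKM in deletion, against 3.40, 3.54, 3.67 and 4.83 FPKM in wild-type arteries. The groups did not overlap, as for the 0.953% of all genes that lay apart lower in deletion, with a log2 fold change of -0.47 (SE 0.17; limma adjusted p = 0.893, unadjusted p = 0.0189). Lyve1 (12.4 FPKM in deletion, 18.4 in wild-type, log2 fold change -0.56) and Cebpa (80.3 and 59.3, 0.40) followed, with overlapping groups.

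In kidney 2 of the 28 passed an unadjusted p under 0.05, both higher in deletion, beside 0.939% of all genes that did so higher and 0.466% lower. Gpnmb stood at 4.53, 5.56, 1.73 and 2.61 FPKM in deletion, against 1.77, 2.13 and 1.21 FPKM in wild-type kidneys (log2 fold change 0.81, limma unadjusted p = 0.0384, adjusted p = 0.999), and its value without wild-type 3 was 0.64 (limma unadjusted p = 0.125). Irf8, a transcription factor of monocytes and dendritic cells, stood at 5.17, 6.57, 5.08 and 6.27 FPKM in deletion, against 4.52, 4.28 and 4.53 FPKM in wild-type kidneys, without overlap, as for 1.54% of all genes higher in deletion (log2 fold change 0.34, unadjusted p = 0.0446, adjusted p = 0.999 by limma). Without wild-type 3 the Irf8 value was 0.35 (limma unadjusted p = 0.0663). Tgfb1 followed, with means of 6.86 FPKM in deletion and 5.01 FPKM in wild-type kidneys and overlapping groups (log2 fold change 0.41, and 0.36 without wild-type 3). For the difference of effects between tissues limma again called 0 of 28, and the smallest p was that of Ccr2 (-1.19, SE 0.37, unadjusted p = 0.00595, adjusted p = 0.947), followed by Tgfb1 (-0.68) and Arg1 (1.05). Without kidney wild-type 3 these were -1.03, -0.63 and 0.93.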

How the data were processed

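RNA-seq of total RNA was deposited as 1 table of FPKM values, made by the authors, with 1 column per library (8 arteries, 7 kidneys). The build was rn7, and HISAT2 2.2.1, Trim Galore 0.6.2 and DESeq2 1.46.0 are listed, per the submitters' processing notes, which state no roles. What computed the FPKM is not given in the sources used, so depth is unknown, and low values gave no whole reads. Of 40694 rows, 6337 without an identifier were dropped. Values were used as log2(FPKM + 0.5), which understates the change of low genes. Genes averaging 0.5 FPKM or more in the tissue (in either tissue for comparisons across tissues) were tested with limma 3.58.1 in R 4.3.3 (trend, robust), two-sided. P-values were adjusted by Benjamini-Hochberg over all genes tested and called under 0.05. The 15-library fit had 1 mean per group. The script was tested on simulated data.

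Genes given in full were the 8 with the smallest p in each genotype comparison, the 6 largest called each way between tissues (1 was lower), and the 3 with the smallest p for the difference of effects. Of the further genes, values were given for those called or, with none called, for the 3 with the smallest p; 1 of those called is not reported here. The 30 genes, the further genes (Chil3 among them had no row under that symbol) and the cell type lists were chosen with earlier results of these data known. Alternatives were pseudocounts of 0.1 and 1, no filter or 1 FPKM, quantile normalization, median-of-ratios scaling, array weights, non-robust moderation, a replicate block, and leaving out libraries. The deposited coverage column names no sample and no method, and was not used. Python 3.11.15 with matplotlib 3.10.9 drew the figures.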

Additional observations from a re-analysis of the deposited data

Results flagged for a closer look

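A library was picked out where its gap to the nearest other library of its group exceeded Dixon's 95% limit. This was tested for 90 combinations of gene and group with 4 libraries, and 11 were picked out; chance gives about 1 in 20, and genes of 1 library are not independent. In artery wild-type 3, 5 genes stood above the other wild-type arteries: C1qa at 65.6 FPKM (others 23.3 to 27.8), C1qb at 39.4 (12.9 to 16.1), C1qc at 81.1 (27.8 to 31.6), Marco at 71.1 (0 to 0.397) and Siglec1 at 27.4 (2.42 to 3.10). In artery deletion 3, Mrc1 at 26.3 FPKM (others 15.4 to 15.9) and Clec10a at 19.6 (12.6 to 13.7) stood above the other deletion arteries. Vsig4 stood at 0.562 FPKM in artery deletion 1, with 0.438 to 0.453 in the others. In the deletion kidneys, number 2 was high for Cd86 (1.67 FPKM, others 0.922 to 1.05) and held 0.0130 FPKM of Marco, which was listed at 0 in the others; with 3 libraries at 0, any value above 0 would be picked out. Number 3 was low for Fcgr2b, at 0.241 FPKM, with 0.858 to 0.947 in the others.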

How the results depend on the processing

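Of all 30 genes, 5 of which entered the tissue test through artery alone, 23 were called higher and 1 lower in artery, and these were also the counts under pseudocounts of 0.1 and 1, no filter, median-of-ratios scaling, the non-robust moderation and the replicate block. The counts were 22 and 1 with a filter at 1 FPKM, 24 and 2 with quantile normalization, 23 and 2 with array weights, and 25 and 1 without artery wild-type 1. Leaving out any other library gave 23 and 1. Of all 17842 genes tested between tissues, 7563 were called higher and 6242 lower in artery. These were 6737 and 7090 with median-of-ratios scaling, 7272 and 6408 with quantile normalization, and 8257 and 6692 with array weights. Between genotypes, 0 of the 30 genes were called in either tissue under every alternative run. Over all genes, 1 was called in artery with a pseudocount of 0.1, and 0 to 1 when a library was left out; in kidney 282 were called with array weights (188 higher, 94 lower) and 0 to 1 when a library was left out. In kidney with array weights, Itgam was -0.021, Cd14 -0.016 and Clec10a -0.30 on the log2 scale, and Clec10a's difference of effects was 0.017, all with the opposite sign; the cause was not tested. Csf1r in kidney ran from -0.024 to 0.48 when a library was left out. Without kidney wild-type 3, an alternative chosen after seeing the data for these genes, Adgre1 turned to -0.075 and C1qa to -0.12 in kidney; counts over the 25 genes tested in both tissues were added in the same way. The median of the 30 genes in artery ran from -0.40 to -0.02, and that of the kidney genes from -0.04 to 0.28.

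Deletion and wild-type libraries share replicate numbers. Deviations of same-numbered libraries correlated at 0.32, -0.34, 0.24 and 0.30 in artery and 0.08, -0.01 and 0.27 in kidney. Those of differently numbered libraries ran from -0.45 to 0.45 in artery and from -0.30 to 0.34 in kidney. The same-numbered values lay within these ranges, so the numbers were not taken as pairs, though this cannot exclude pairing. With the replicate block, limma called 0 genes in artery and 0 in kidney, and the members' medians were -0.18 and 0.18. With 4 against 4 and 4 against 3 libraries and unknown depth, a p that misses the threshold does not show equal levels.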
